A study of Bos taurus with 5 samples.

Results

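Deubiquitinating enzymes, the proteases that take ubiquitin off other proteins, were described by their RNA levels in the back muscle longissimus dorsi of 5 Jiaxian Red cattle, all 18 months old. They were taken as the genes whose symbols begin with the names of the known deubiquitinase families (USP followed by a digit, UCH, OTU, ATXN3, JOSD, STAMBP, BRCC3, BAP1, TNFAIP3, CYLD, ZRANB1, MINDY, MYSM1 and a few more), leaving out USP18. The rule found 50 of the 9022 genes of the table, with 75 of its 13391 transcripts, and used no measured value. There was 1 library for every animal and only 1 group, with no treatment named, so no conditions could be compared and the descriptions are of levels and of the spread among animals. The title of the series is about POLB, which encodes DNA polymerase beta, in primary myocytes, and no such cells were analysed here. FPKM is a fragment count divided by the length of the transcript and the size of the library. It was added up over a gene's listed transcripts, and since it is per length, different genes can be set side by side. Read depth was unknown, as the values came without counts. Where 5 values of a gene follow each other, they are those of libraries 1 to 5 in that order.

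Ubiquitin is a small protein that is joined to other proteins, singly or in chains, and marks them for the proteasome, for sorting in the cell or for a change in activity. Deubiquitinases cut it off again, trim or edit the chains, and return free ubiquitin to the pool. Most are cysteine proteases of the USP, UCH, OTU, MJD (Josephin) and MINDY families, while the JAMM family uses a zinc ion. Muscle mass depends on the balance between protein synthesis and ubiquitin-dependent breakdown, and ubiquitin ligases and deubiquitinases both take part in that breakdown.

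Of the 50 genes 31 were of the USP family with CYLD, 8 OTU, 3 UCH, 3 JAMM, 3 MINDY and 2 MJD. They lay on 25 chromosomes, 3 of them (USP9X, USP11 and BRCC3) on X, and all 50 overlapped the position of the same symbol in the RefSeq table. That table holds 84 protein-coding symbols that match the rule. The other 34, among them UCHL1, OTUB1, OTULIN, USP2, USP14 and USP19, were not analysed here. The 34 include USP6NL, a Rab regulator that matches by name alone. For 17 of the 50 genes the listed transcript numbers skipped at least 1, and sums of those genes may be partial.

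The tissue label was checked against marker genes. Of 10 skeletal muscle markers 6 were listed, with ACTA1, TNNC1, MYH7 and TNNT3 the most abundant, and the list summed to 14348 to 15803 FPKM per library. CKM, the muscle creatine kinase gene, was much lower, from 35.5 FPKM in library 1 to 2.499 in library 5. The sum of 3 listed fibroblast markers ran from 394 to 845 FPKM, of 4 smooth muscle markers from 34.2 to 86.9, of 3 leukocyte markers from 121 to 205, of 5 endothelial markers from 77.9 to 90.3 and of 2 glial markers from 28.1 to 44.1. Nearly all of the leukocyte sum was CD74, at 119 to 201 FPKM, while CD3E stayed under 0.482. Among the endothelial markers VWF stayed under 0.179. The red cell gene HBB reached at most 3.09 FPKM. The adipocyte markers were not analysed here. Across the 41 deubiquitinase genes with a mean of at least 1 FPKM, Spearman's rho between libraries ran from 0.953 to 0.990, and across all 6136 such genes from 0.890 to 0.923. Genes are not independent replicates, and in whole tissue fewer cells of a type and less RNA per cell cannot be told apart.

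Most deubiquitinase genes were expressed, a few of them strongly. Detected, meaning a mean of 1 FPKM or more, were 41 of the 50 genes (82%) and 68% of all genes, and in 37 genes no library fell under 1 FPKM (57.4% of all genes). Abundant, with a mean of 10 FPKM or more, were 16 of the 50 (32%) and 24.1% of all genes. The median of the 50 means was 5.91 FPKM, and of all gene means 3.05. Together the 50 genes held 0.306%, 0.334%, 0.320%, 0.269% and 0.335% of the summed FPKM in libraries 1 to 5, a mean of 0.313% ± 0.0272 (SD, n = 5). The share was lowest in library 4, which had the highest summed FPKM of all genes, 223251. The USP family made up 71.3% ± 2.31 of the deubiquitinase sum and the OTU family 17.8% ± 2.63, while UCH, JAMM, MINDY and MJD genes came to 5.52%, 2.27%, 2.05% and 0.972% (means, n = 5). The 10 most abundant genes held 66.4% ± 0.741 of that sum (SD, n = 5).

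**Figure D1:**
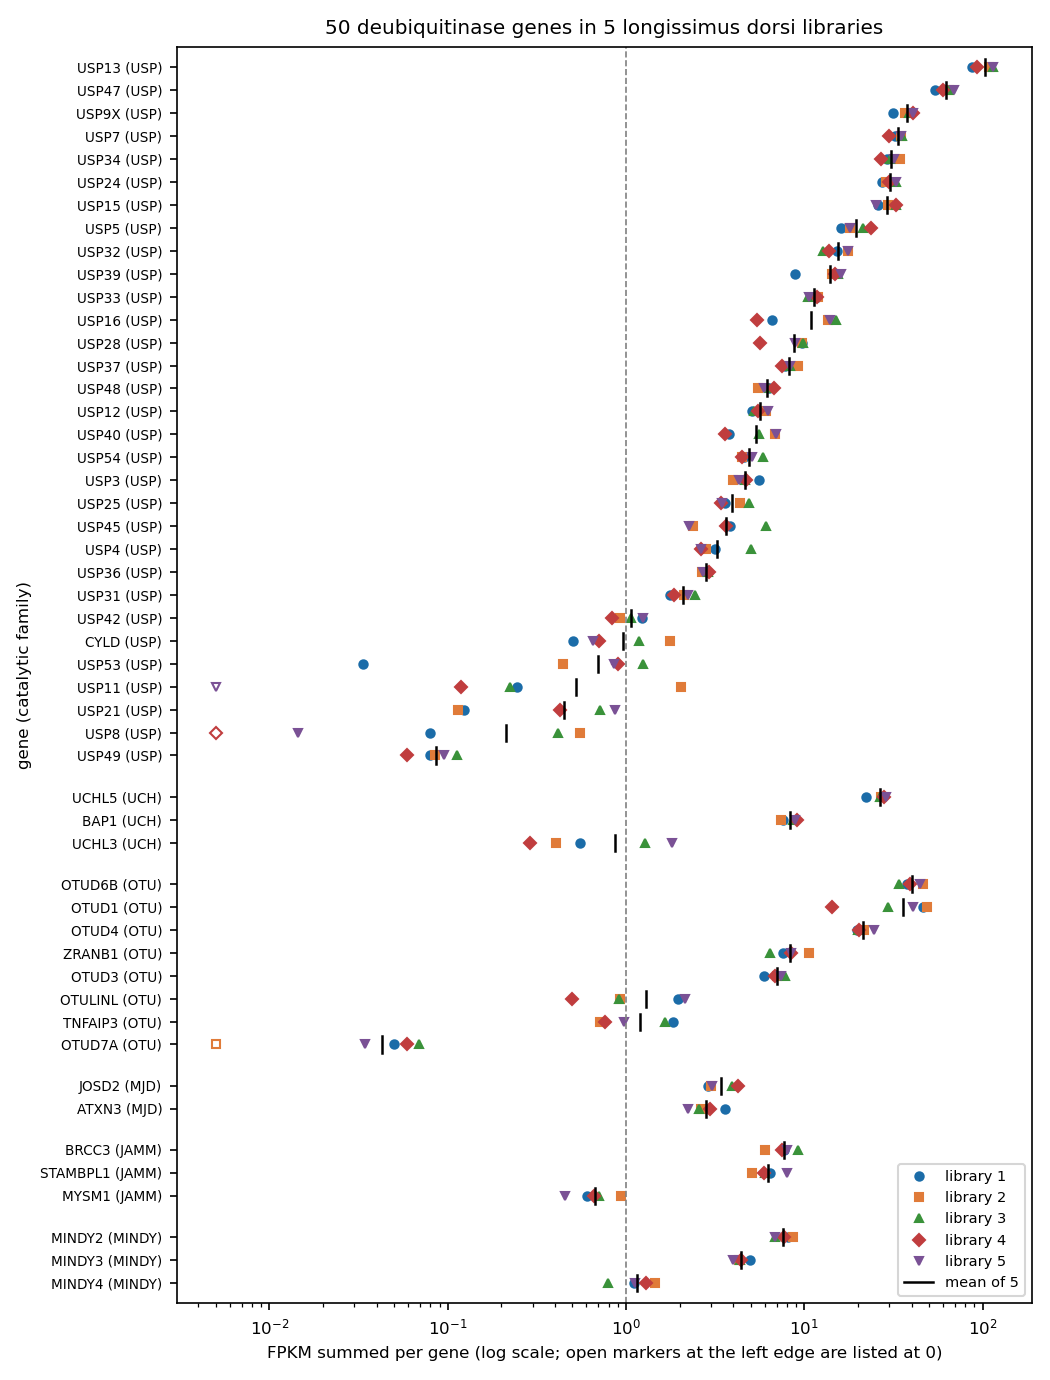
FPKM summed per gene (log scale) for each of the 50 deubiquitinase genes, grouped by catalytic family and ordered by mean. Coloured markers are the 5 libraries, black bars the mean, open markers at the left edge values listed at 0, and the dashed line 1 FPKM. USP13 and USP47 lie at the top, and 9 genes average under 1 FPKM.

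USP13 was the most abundant, and its lowest library lay above the highest of every other deubiquitinase gene. USP13, also called isopeptidase T-3, is the close relative of USP5, or isopeptidase T, which takes apart free ubiquitin chains. The gene, ENSBTAG00000005946, is listed on chromosome 1 from 87355950 to 87482259. It stood at 87.2, 109, 115, 93.1 and 114 FPKM, and at a mean of 104 ± 12.6 (SD, n = 5) exceeded 97.7% of all listed genes. Libraries 1 and 4 were the lowest, though the whole range was only 1.31-fold. USP13 alone held 16.0% ± 0.945 of the deubiquitinase sum. USP5 stood at 16.04, 18.1, 21.4, 23.6 and 17.96 FPKM, a mean of 19.4 ± 3.04, and its highest library was far below the lowest of USP13.

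USP47 and its relative USP7 were also abundant. USP47 is reported to remove ubiquitin from DNA polymerase beta, the enzyme of the series' title, and USP7 acts on MDM2 and p53. USP47 stood at 53.7, 64.7, 64.9, 60.3 and 69.05 FPKM. POLB itself stood at 8.49, 14.4, 19.6, 20.3 and 15.1 FPKM, and both genes were lowest in library 1, while their highest libraries differed. Library 1 was also the lowest for 26.5% of all detected genes. USP7 stood at 32.4, 34.9, 35.2, 29.8 and 34.8 FPKM, a mean of 33.4 ± 2.31 (SD, n = 5), with libraries spread over 1.18-fold. MDM2 averaged 44.2 ± 7.59 FPKM.

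USP9X, USP34, USP24 and USP15 all had means between 29.1 and 37.5 FPKM. USP9X, an X-linked enzyme that stabilises signalling and endocytic proteins, stood at 31.4, 36.5, 38.7, 40.5 and 40.5 FPKM. USP34, which acts on axin in Wnt signalling, stood at 29.1, 34.2, 30.4, 26.9 and 32.05 FPKM, and USP24 at 27.2, 28.6, 32.6, 29.8 and 32.7 FPKM. USP34 and USP24 overlapped throughout, and USP9X lay above each of them in every library. USP15, which acts on the receptor complex and SMADs of TGF-beta signalling, stood at 26.00, 29.3, 32.6, 32.7 and 25.1 FPKM. Its libraries 3 and 4 were high and libraries 1 and 5 low, all within 1.302-fold. USP32, a membrane-bound enzyme of the endosome and Golgi, stood at 15.3, 17.7, 12.7, 13.7 and 17.7 FPKM, with library 3 lowest. USP33, which acts on receptor recycling, was the most even of the 16 abundant genes, at 11.7, 11.99, 10.5, 11.8 and 10.6 FPKM. This range was 1.14-fold.

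USP39, a splicing factor of the tri-snRNP with a USP fold that lacks the catalytic residues, stood at 8.87, 14.3, 15.4, 14.8 and 16.00 FPKM. Library 1 was low, and libraries 2 to 5 lay within 14.3 to 16.0 FPKM. USP16, which removes ubiquitin from histone H2A, stood at 6.56, 13.6, 15.1, 5.43 and 13.9 FPKM. Its libraries fell into a low pair, 1 and 4, and a high trio, 2, 3 and 5, with no value in between from 6.56 to 13.6 FPKM. USP16 had 3 gaps in its transcript numbers, so this sum may be partial.

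Among the USP genes between 1 and 10 FPKM, USP28, which stabilises MYC and acts after DNA damage, stood at 9.68, 9.68, 9.81, 5.62 and 8.84 FPKM. Library 4 was the only low one. Its close relative USP25, known for a muscle isoform, stood lower at 3.58, 4.38, 4.89, 3.41 and 3.45 FPKM, from a single listed transcript with 2 numbers missing. USP40 stood at 3.77, 6.89, 5.56, 3.57 and 6.91 FPKM, low in libraries 1 and 4, as USP16 was. USP45, which acts on a DNA repair nuclease, stood at 3.85, 2.37, 6.07, 3.64 and 2.26 FPKM, highest in library 3. USP4, the relative of USP15 that also works with the spliceosome, stood at 3.14, 2.81, 4.995, 2.63 and 2.63 FPKM, with library 3 the highest.

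In the other USP genes of this range the highest library was at most 1.5 times the lowest. USP36, an enzyme of the nucleolus, had the smallest SD on the log2(FPKM + 1) scale of the 41 detected genes, at 2.89, 2.67, 2.89, 2.903 and 2.702 FPKM. USP33 and MINDY3 came next. USP37 averaged 8.26 ± 0.653 FPKM, USP48 6.18 ± 0.456, USP12 5.63 ± 0.527, the histone H2A enzyme USP3 4.63 ± 0.591 and USP31 2.08 ± 0.273 (SD, n = 5). USP54 stood at 4.57, 4.46, 5.87, 4.47 and 5.105 FPKM and USP42 at 1.23, 0.929, 1.07, 0.836 and 1.24 FPKM.

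Under a mean of 1 FPKM lay 6 genes of the USP family. CYLD, which removes Lys63 and linear chains and damps NF-kappaB signalling, stood at 0.504, 1.77, 1.18, 0.704 and 0.655 FPKM. USP53 stood at 0.0335, 0.442, 1.25, 0.901 and 0.856 FPKM. USP21 ran from 0.114 to 0.866 FPKM and USP49 from 0.0589 to 0.113. USP8, the main deubiquitinase of endosomal sorting, was listed at 0 in library 4, and its highest value was 0.5497 FPKM. USP11, a relative of USP4 and USP15, stood at 0.245, 2.04, 0.225, 0.118 and 0 FPKM, high in library 2 alone. Listed values this low say little about expression, since VCP, the segregase gene that all cells use, was itself listed at only 0.0429 to 0.233 FPKM.

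The UCH family was led by UCHL5, an enzyme of the proteasome's regulatory particle. UCHL5 stood at 22.1, 26.96, 26.7, 27.95 and 28.7 FPKM, a mean of 26.5 ± 2.55 (SD, n = 5), with library 1 the lowest. Of the same particle's genes, PSMD1 and PSMD2 were also lowest in library 1 and ADRM1 was highest there. Of all detected genes 26.5% were lowest in library 1. PSMD1 stood at 35.96, 48.7, 49.3, 49.1 and 45.8 FPKM and PSMD2 at 51.4, 67.8, 75.3, 73.1 and 76.7 FPKM. ADRM1, the UCHL5 receptor at the proteasome, stood at 0.567, 0.211, 0.303, 0.408 and 0.104 FPKM, with 1 transcript number missing. BAP1, the tumour suppressor that removes ubiquitin from histone H2A, stood at 7.63, 7.39, 8.65, 9.07 and 8.82 FPKM, a range of 1.23-fold. UCHL3, a small hydrolase of ubiquitin and NEDD8, averaged under 1 FPKM, at 0.554, 0.403, 1.28, 0.2900 and 1.805 FPKM.

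OTU enzymes, many of them selective for a chain type, held 3 of the 16 abundant genes. OTUD6B, linked to proteasome assembly and translation, stood at 37.7, 46.03, 34.1, 38.9 and 44.7 FPKM. OTUD4, a scaffold and enzyme of DNA repair and innate signalling, stood at 19.7, 21.7, 19.99, 20.3 and 24.6 FPKM. OTUD1 had the greatest SD on the log2(FPKM + 1) scale of the 41 detected genes, though OTULINL had a wider range, 4.296-fold. It stood at 46.3, 48.8, 29.5, 14.3 and 40.7 FPKM, a 3.41-fold range in which library 4 was the lowest and libraries 1 and 2 the highest. The gene, ENSBTAG00000047752, is listed with 1 transcript on chromosome 13 from 24387958 to 24389403, a short locus of 1.446 kb. That SD, 0.70, exceeded that of 91.9% of detected genes, and its mean was 35.9 ± 14.2 FPKM (SD, n = 5).

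ZRANB1, or TRABID, which prefers Lys29 and Lys33 chains, stood at 7.57, 10.6, 6.41, 8.44 and 8.47 FPKM, highest in library 2. OTUD3 stood at 5.96, 7.001, 7.76, 6.88 and 7.41 FPKM. TNFAIP3, or A20, the feedback inhibitor of NF-kappaB, stood at 1.84, 0.717, 1.66, 0.7602 and 0.976 FPKM. It was highest in libraries 1 and 3. The sum of the leukocyte markers, nearly all CD74, stood at 205, 138, 139, 129 and 121 FPKM, high in library 1 but not in library 3. The other listed leukocyte markers ran differently. PTPRC was highest in libraries 1 and 4, at 3.71 and 3.41 FPKM, and lowest in library 3. CD3E was highest in library 2, at 0.482 FPKM. The part of leukocytes in the TNFAIP3 values was not tested. OTULINL, an inactive relative of the linear-chain enzyme OTULIN, stood at 1.97, 0.923, 0.915, 0.498 and 2.14 FPKM, high in libraries 1 and 5. OTUD7A was listed at 0 in library 2, and its highest value was 0.0693 FPKM.

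The 8 JAMM, MJD and MINDY genes had means of 0.672 to 7.698 FPKM. BRCC3, the Lys63-specific enzyme of the BRISC and BRCA1-A complexes, stood at 7.72, 6.04, 9.24, 7.503 and 7.99 FPKM. STAMBPL1, a Lys63-specific endosomal enzyme, stood at 6.41, 5.12, 6.02, 5.91 and 7.95 FPKM, and the histone H2A enzyme MYSM1 at 0.603, 0.935, 0.708, 0.659 and 0.453 FPKM. ATXN3, the polyglutamine gene of Machado-Joseph disease and a partner of VCP, stood at 3.599, 2.65, 2.58, 2.94 and 2.23 FPKM, with library 1 highest. JOSD2 stood at 2.89, 3.01, 3.92, 4.25 and 3.03 FPKM. Among the MINDY enzymes, which trim long Lys48 chains, MINDY2 stood at 8.15, 8.61, 6.84, 7.71 and 6.83 FPKM, MINDY3 at 4.94, 4.33, 4.35, 4.41 and 3.99 FPKM and MINDY4 at 1.11, 1.46, 0.7903, 1.29 and 1.13 FPKM. The highest library was over 1.5 times the lowest in BRCC3, STAMBPL1, MYSM1, ATXN3 and MINDY4, and in none of the 8 did a library stand apart.

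Few deubiquitinase genes varied strongly between animals. None of the 41 detected genes reached an SD of 1 on the log2(FPKM + 1) scale, which 3.63% of all detected genes did. The median SD was 0.17 for the 41 and 0.25 for all detected genes. Over all 50 and all 9022 genes the medians were 0.17 and 0.23, and over the 16 and the 2172 genes of at least 10 FPKM 0.16 and 0.22. The highest library was at most 1.5 times the lowest in 27 of the 41 (65.9%), against 36.1% of all detected genes, and in 13 of the 16 abundant genes (81.2%), against 51.4% of all genes of at least 10 FPKM. These shares are descriptions and were given no test. A library was said to stand apart where its distance from the nearest other library was over 0.71 of the whole range (Dixon's criterion). That held for 3 of the 41 genes (7.32%), USP28, USP39 and USP4, and for 6.76% of all detected genes, a similar share. Which genes it names depends on the scaling. After rescaling to the same total, USP39 (0.643) and USP4 (0.639) fell under the limit, USP28 (0.716) stayed above it, and USP7 (0.904, low in library 4) passed it. With the most abundant transcript alone USP28 was at 0.511.

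**Figure D2:**
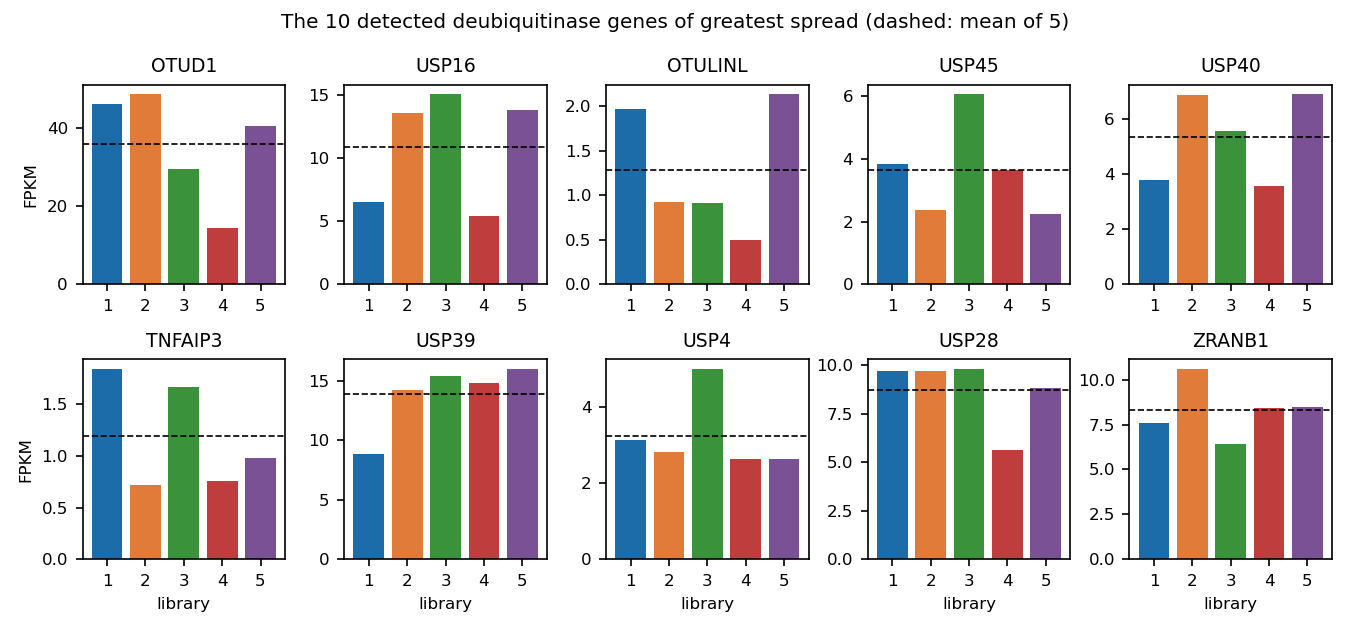
FPKM in each library for the 10 detected deubiquitinase genes of greatest SD on the log2(FPKM + 1) scale; bars are single libraries and the dashed line is their mean. OTUD1 drops to 14.3 FPKM in library 4, USP16 and USP40 are low in libraries 1 and 4, USP39 is low in library 1, and USP45 and USP4 peak in library 3.

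Some of the genes had their lowest values, by rank, in the same 2 libraries. Libraries 1 and 4 were the lowest 2 of the 5 for 9 of the 41 detected genes, namely OTUD3, USP7, USP13, USP16, USP31, USP34, USP37, USP40 and USP47. Among all detected genes this held for 8.21%, and among the 41 it was the most frequent of the 10 possible pairs of libraries. The pair was picked after the values had been seen, and the count was given no test. It counts ranks and not sizes. USP7 ranged over only 1.18-fold, and OTUD3 stood at 6.88 FPKM in library 4 beside 7.001 in library 2. SENP6, a SUMO protease, split as USP16 did, at 6.99, 17.1, 17.4, 8.76 and 16.6 FPKM. Other genes ran the other way. COL3A1, a fibrillar collagen, stood at 625, 297, 409, 609 and 345 FPKM, and the glial marker S100B at 39.8, 28.6, 25.2, 41.2 and 27.6 FPKM, both highest in libraries 1 and 4. The sum of the 3 fibroblast markers was 845, 394, 541, 769 and 460.5 FPKM. Their part in the values of USP16, USP40 and the others in these libraries was not tested. Without library 2 the count was 13 of 41, beside 14.1% of all detected genes. Without library 3 it was 14 of 41, beside 13.6%, and without library 5 it was 11 of 42, beside 13.2%. A gene lowest in libraries 1 and 4 stays so when another library is left out. These counts could therefore rise but hardly fall, and they add no support to the count of 9.

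As a whole the detected deubiquitinase genes were compared with their own means. Their median deviation on the log2(FPKM + 1) scale was -0.06, 0.02, 0.05, -0.02 and 0.06 in libraries 1 to 5, and that of all detected genes 0.00, -0.02, 0.03, 0.02 and 0.02. Counts of genes above their own mean were 16, 23, 27, 17 and 26 of 41 in the same order, and the shares of all detected genes were 50.3%, 46.2%, 57.0%, 52.3% and 53.4%. Library 1 was the lowest of the 5 for 12 of the 41, which it was for 26.5% of all detected genes. Rescaling each library to the same total shifted the median of all genes by 0.08 in library 1 and -0.09 in library 4, and turned the sign of the library 1 value to 0.02. Taken against the median of all genes, the library 1 value was -0.07 as deposited and -0.06 after rescaling.

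**Figure D3:**
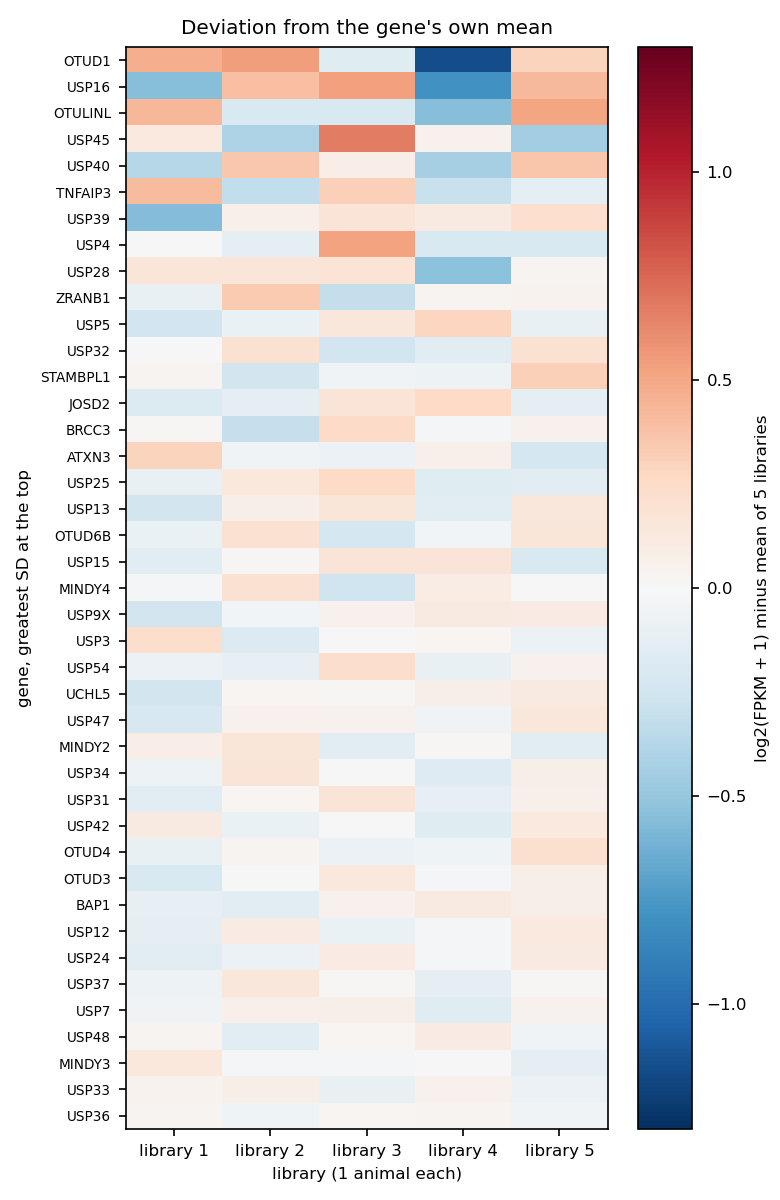
Deviation of log2(FPKM + 1) from the gene's own mean in each library for the 41 detected deubiquitinase genes, ordered by SD with the greatest at the top. Red is above and blue below the mean. Only the upper rows are strongly coloured, with OTUD1 deepest in library 4, and USP36 in the bottom row is nearly blank.

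Closely related enzymes mostly differed in level by the same sign in every animal. Of 52 pairs of related deubiquitinases 20 had both members listed, and 19 of these (95%) had 1 direction in 5 of 5 libraries. The same was true of 79.8% of all pairs of listed genes. Where both genes were detected the count was 14 of 15 pairs, and 76.8% of all such gene pairs had it. With 5 libraries the exact two-sided permutation test by flipping signs cannot go below p = 0.063, which each of the 19 pairs reached (0.0658 after Benjamini-Hochberg adjustment over the 20 pairs). Limma's moderated test, which takes the spread partly from all 20 pairs, gave these 19 an adjusted p of at most 0.0208. It was not run on all gene pairs, so no share over all pairs can be set beside that count. Pairs that share a gene are not independent. Of the genes in these pairs, transcript numbers were missing in USP40 (6), USP16 (3), and USP25, USP28 and USP54 (2 each). USP4, USP34, USP45, UCHL3 and TNFAIP3 each lacked 1, and all these sums may be partial.

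Of the pairs of abundant genes USP13 and USP5 differed most, with USP13 5.13-fold higher on the FPKM + 1 scale. The log2 ratio of USP5 over USP13 averaged -2.36 ± 0.26 (SD, n = 5). USP15 exceeded USP4 by 7.204-fold and USP11 by 21.6-fold, with USP4 2.99-fold above USP11. With a pseudocount of 0.1 the folds over USP11 were 83.1 for USP15 and 9.27 for USP4. USP11 averaged 0.526 FPKM, and listed values this low say little about expression. The same limit holds for USP53, UCHL3 and MYSM1 in the pairs below, which also averaged under 1 FPKM. USP47 lay above USP7 by 1.84-fold and above USP40, which had 6 missing transcript numbers, by 10.3-fold. USP9X exceeded USP24 by 1.23-fold and USP34 by 1.22-fold, small differences that still held in 5 of 5 libraries. USP24 and USP34 did not separate, since USP24 was higher in 3 libraries and lower in 2. Their log2 ratio was -0.01 ± 0.16 (SD, n = 5, exact p = 0.9375, 0.9375 after adjustment; limma adjusted p = 0.871).

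USP28 exceeded USP25 by 1.95-fold, with a log2 ratio of USP25 over USP28 of -0.96 ± 0.25 (SD, n = 5). When only the most abundant listed transcript of each gene was used the ratio was -0.48 and the direction no longer held in every library. USP16 exceeded USP45 by 2.498-fold, but this log2 ratio, 1.32 ± 0.80, varied more than any other. USP54 exceeded USP53 by 3.58-fold, a log2 ratio of USP53 over USP54 of -1.84 that became -1.13 with the most abundant transcript alone and -3.00 with a pseudocount of 0.1. USP36 lay 1.85-fold above USP42, or 2.53-fold with that pseudocount.

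Outside the USP family, UCHL5 exceeded BAP1 by 2.95-fold and UCHL3 by 15.4-fold. OTUD4 exceeded OTUD3 by 2.78-fold, and ZRANB1 exceeded TNFAIP3 by 4.29-fold. BRCC3 exceeded MYSM1 by 5.19-fold. The MINDY genes ran in the order MINDY2, MINDY3, MINDY4, with steps of 1.59-fold and 2.52-fold. With a pseudocount of 0.1 UCHL5 exceeded UCHL3 by 32.9-fold, ZRANB1 exceeded TNFAIP3 by 6.85-fold and BRCC3 exceeded MYSM1 by 10.2-fold.

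**Figure D4:**
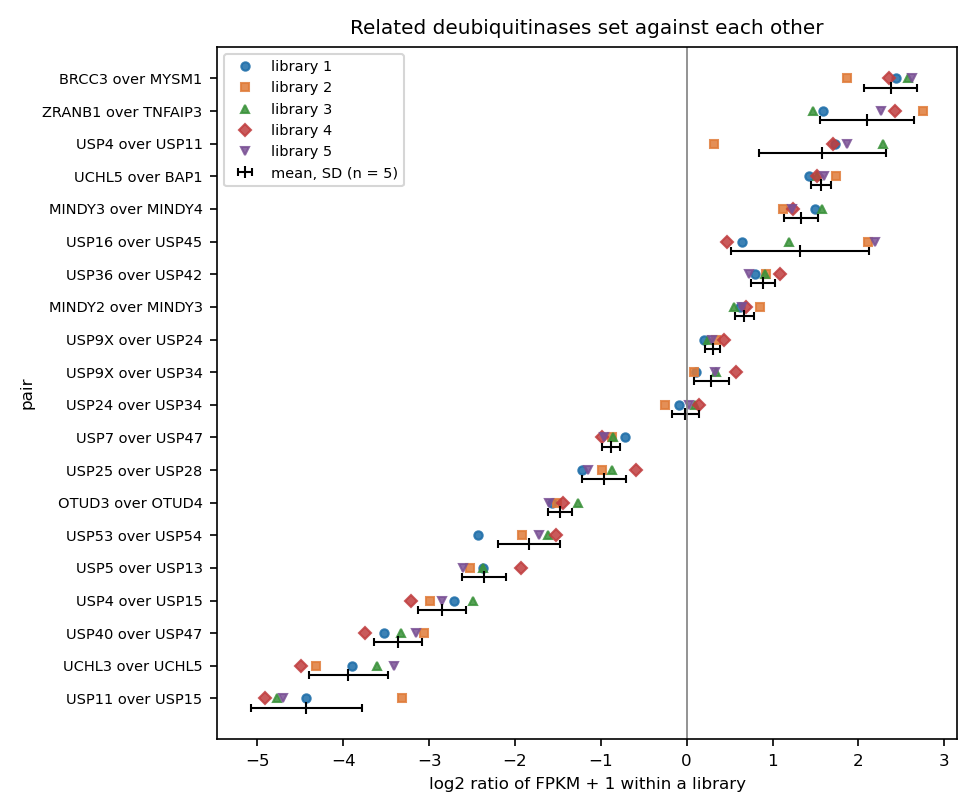
Log2 ratio of FPKM + 1 within each library for the 20 pairs of related deubiquitinases with both members listed. Coloured markers are libraries and black bars the mean and SD (n = 5). In 19 pairs all markers lie on 1 side of 0, while USP24 over USP34 straddles it.

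The gene sums rested mostly on 1 transcript each. Of the 50 genes 34 had 1 listed transcript and 16 had 2 to 4. In 14 of these 16 the same transcript was the most abundant in every library, and in 9 it carried over 90% of the gene's FPKM on average. USP15-201 carried 78.8% ± 2.49 and USP15-202 18.2% ± 2.73 (SD, n = 5), nearly the same split in each animal. Of the other abundant genes with several listed transcripts, USP32-202 carried 99.9%, USP47-201 98.9%, USP24-202 95.9%, USP16-205 94.7%, USP34-205 92.7% and USP33-201 92.1% of the gene's FPKM on average. USP34-204 was listed at 0 in every library. In USP28, whose sum was low in library 4, USP28-203 was also lowest there, at 6.53, 8.18, 7.04, 3.01 and 5.65 FPKM. The transcript USP28-205, with a shorter locus, was not low there, at 1.43, 1.499, 1.21, 1.74 and 2.43 FPKM.

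STAMBPL1 and USP54 changed their leading transcript between libraries. STAMBPL1-201 stood at 3.35, 0.733, 3.08, 4.28 and 5.92 FPKM, and STAMBPL1-203, whose listed start differs, at 3.06, 4.38, 2.94, 1.63 and 2.03 FPKM. STAMBPL1-203 thus held 85.7% of the gene in library 2 and 25.5% in library 5. In USP54 the transcript USP54-204 stood at 4.38, 4.12, 2.87, 1.31 and 1.404 FPKM. USP54-203 was listed at 0 in libraries 1 and 2 and at 2.69, 1.75 and 1.94 FPKM in libraries 3 to 5, and USP54-206 appeared only in libraries 4 and 5, at 0.646 and 1.44 FPKM. These 3 transcripts have the same listed start and end, and the gene sum ran only from 4.46 to 5.87 FPKM. Values per transcript are estimates that divide shared fragments, and how much of these shifts is estimation was not tested.

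**Figure D5:**
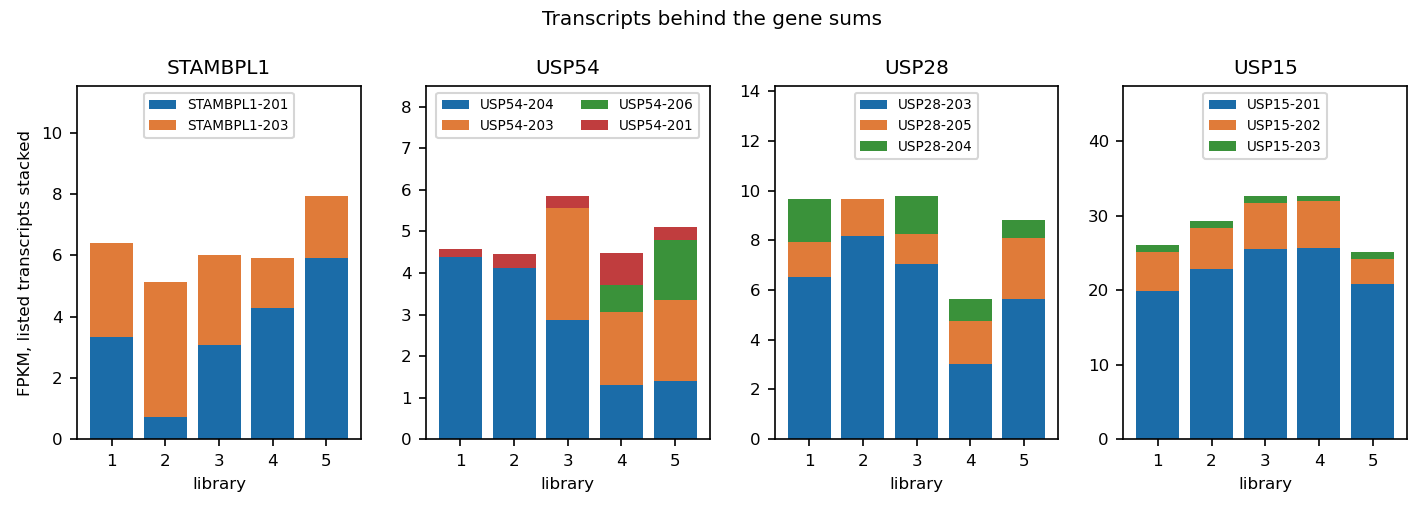
FPKM of the listed transcripts of STAMBPL1, USP54, USP28 and USP15, stacked for each library. The split is steady in USP15, moves to STAMBPL1-203 in library 2, and moves away from USP54-204 in libraries 3 to 5 while the USP54 sum stays between 4.46 and 5.87 FPKM.

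The partners of these enzymes were also mostly expressed. Of 105 symbols in the lists of ubiquitin genes, complex subunits, substrates and related proteases 61 were listed and 52 of these detected (85.2%, where 68% of all genes were), with a median SD of 0.24 on the log2(FPKM + 1) scale. RPS27A, which encodes ubiquitin fused to a ribosomal protein, stood above USP13 in every library, at a mean of 376 ± 72.7 FPKM (SD, n = 5). In the BRISC and BRCA1-A complexes BABAM2 (13.2 ± 1.61), BABAM1 (11.7 ± 2.56) and ABRAXAS2 (5.17 ± 1.09) were detected, beside 7.698 ± 1.15 FPKM for BRCC3. UIMC1 averaged 3.13 ± 0.862 FPKM and BRCA1 stood at 0.885, 0.9697, 0.868, 2.29 and 0.988 FPKM.

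Chromatin partners were lower, apart from OGT, the O-GlcNAc transferase found with BAP1, at 46.2 ± 9.93 FPKM. KDM1B (4.38 ± 2.26), FOXK1 (3.64 ± 0.435) and HCFC1 (1.13 ± 0.292) followed, and MBD5 averaged under 1 FPKM. The SAGA list had 4 detected genes, TADA2B (4.05 ± 0.428), ENY2 (3.32 ± 2.201), ATXN7L2 (2.75 ± 0.489) and SGF29 (2.09 ± 0.502), of which ENY2 varied most, from 0.964 to 6.95 FPKM. Of the partners of the USP1, USP12 and USP46 group FANCD2 averaged 2.07 ± 1.19 FPKM, while WDR20 and FANCI were under 1.

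Of the sorting list 3 of 5 listed genes were detected, and of the proteasome and VCP list 4 of 7, both shares below the 68% of all genes. TSG101 of the ESCRT machinery averaged 31.1 ± 4.86 FPKM, CHMP1A 12.4 ± 1.64 and STAM, an adaptor of the endosomal deubiquitinases, 10.2 ± 3.24, while HGS and CHMP3 were under 1. PSMD2 averaged 68.8 ± 10.3, PSMD1 45.8 ± 5.66 and the VCP cofactor UFD1 16.3 ± 2.28 FPKM. FAF1, another VCP cofactor, was the only detected partner with an SD of at least 1 (1.40), at 6.32, 23.2, 2.54, 21.4 and 2.197 FPKM, with 2 transcript numbers missing. ADRM1, VCP and FAF2 averaged under 1 FPKM.

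In NF-kappaB control TAX1BP1 averaged 70.3 ± 5.26 FPKM, TNIP1 28.96 ± 4.46 and ITCH 23.3 ± 1.32, all 3 partners of TNFAIP3 and each well above it. RNF31, the catalytic subunit of the linear-chain ligase, averaged 10.7 ± 1.04, IKBKG 8.37 ± 1.13 and SPATA2, which tethers CYLD, 3.85 ± 0.957. Of the mitophagy list VDAC1 averaged 165 ± 16.2, MFN1 41.2 ± 1.79 and MFN2 27.2 ± 13.8. MFN2 was highest in library 4, at 25.3, 23.4, 18.4, 51.2 and 17.6 FPKM. G3BP1, the cofactor of USP10, averaged 62.9 ± 7.99, GMPS, a partner of USP7, 27.01 ± 11.5, SMURF2 12.5 ± 1.52, SART3 9.13 ± 0.772 and HIF1A 7.59 ± 0.667. GMPS ran from 8.69 FPKM in library 4 to 40.7 in library 5.

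Proteases of other ubiquitin-like proteins were within the range of the deubiquitinases. Of 15 symbols 11 were listed and 10 detected, the most abundant of them ATG4A, which processes ATG8 proteins, at 21.8 ± 3.797 FPKM, SENP6 at 13.4 ± 5.07 and UFSP2, the UFM1 protease, at 9.06 ± 1.73 (SD, n = 5). ATG4D stood at 0, 3.22, 2.19, 1.77 and 0 FPKM, and SENP2 averaged under 1. The JAMM relative EIF3H, a translation factor subunit, averaged 49.3 ± 3.77 FPKM and MPND 1.24 ± 0.396.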

How the data were processed

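Total RNA of longissimus dorsi from 5 cattle was sequenced, with 1 library per animal, per the labels. The deposited values were FPKM per transcript and library, per the file headers. HTSeq 0.6.0, DESeq2 1.10.1 and the build UMD3.1 are listed in the submitters' processing notes with no role. The aligner is not given in the sources used here, nor is the annotation release or the program behind the FPKM. Positions of 7397 genes (99.6% of the 7423 whose symbol is in RefSeq's table for ARS-UCD2.0) overlap that assembly's. The printed positions are therefore the table's own, and no assembly is named for them.

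Transcript FPKM were summed per gene identifier. Levels are FPKM, and spreads and ratios use log2(FPKM + 1). The pseudocount of 1 understates ratios of low genes. Detection meant a mean of at least 1 FPKM. A fold between 2 genes is 2 to the power of the mean log2 ratio of FPKM + 1. No counting interval could be given without counts. Library numbers are the labels' own. The p-values measure only the spread between these animals. Pairs were tested by exact two-sided permutation (signs flipped) and, as an alternative, with limma 3.58.1 in R 4.3.3. Other work used matplotlib 3.10.9, scipy 1.17.1, pandas 2.3.3, numpy 2.4.6 and Python 3.11.15, and the gap, spread and limma steps were tested on simulated data.

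The members, gene lists and pairs were chosen with earlier results of these data known. Values in every library are given for members of mean at least 10 FPKM, the 3 of highest mean in each family, the 10 of greatest SD and members with a library apart. The count for libraries 1 and 4, and COL3A1, S100B, SENP6, POLB and VCP beside results, were chosen after values had been seen. Alternatives were a pseudocount of 0.1, detection limits, rescaling, size factors, the most abundant transcript and leaving out each library. Some genes of the partner lists are not reported here.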

Additional observations from a re-analysis of the deposited data

Results flagged for a closer look

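Each of the 50 deubiquitinase genes, 61 partner genes and 20 pair ratios was checked for a library far from the other 4. Also checked were 21 transcripts of at least 1 FPKM on average, all from deubiquitinase genes with 2 or more listed transcripts. Chance gives such a library in about 1 in 20 groups. Among the deubiquitinases, the gap to the nearest library divided by the range was 0.769 for USP28, low in library 4, 0.756 for USP39, low in library 1, 0.788 for USP4, high in library 3, and 0.880 for USP11, high in library 2 and under a mean of 1 FPKM. Among the partners it was 0.915 for BRCA1, high in library 4, 0.770 for MFN2, also high in library 4, 0.736 for PSMD1, low in library 1, and 0.771 for HGS, high in library 3 and under 0.406 FPKM in all libraries. No pair ratio and none of these 21 transcripts passed the limit of 0.71. After rescaling to the same total USP39 (0.643), USP4 (0.639), PSMD1 (0.646) and MFN2 (0.686) were under that limit, a comparison added after the data had been seen.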

How the results depend on the processing

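Of 109 recomputed summary values 104 stayed within 1.5 times the count or within 1 SD of the value reported. That SD was the one across the 5 libraries, a wide limit for the small median deviations. In library 2 the members' median deviation turned from 0.0215 to -0.00755 without library 1 and still counted as within it. A count within its limit can also rest on other genes. With a detection limit of 5 FPKM 27 members were detected, against 41, as fewer genes pass a higher limit. The members' share rose from 0.313% to 0.355% without mitochondrial genes in the total and to 0.387% with only genes that have a symbol. After rescaling to the same total, the members' median deviation was 0.0193 in library 1 and -0.121 in library 4, against -0.06 and -0.02. The number of detected members ran from 41 to 43 with single libraries left out, the number with a library apart from 2 to 4 (2 after rescaling, USP28 and USP7), and the share from 0.307% to 0.324%. None had an SD of at least 1 under any alternative run. The direction of the mean log2 ratio held in all alternatives for 19 of 20 pairs. USP24 over USP34 turned from -0.01 to 0.0335 with the most abundant transcript. With single libraries left out it ran from -0.0538 to 0.0452, above 0 without library 1 (0.00465) and without library 2. The count of members lowest in libraries 1 and 4 was 9 after rescaling and 10 with size factors. A pseudocount was not varied for the gap ratio, which was taken on FPKM. No paired comparison of conditions was possible because there is only 1 group, while the gene pairs were compared within each library. Read depth is unknown, so the precision of low values could not be given.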
